A study of Mus musculus with 9 samples.

Results

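Genes of major histocompatibility complex (MHC) class II presentation, together with the costimulatory ligands Cd80 and Cd86, were followed in innate lymphoid cells (ILCs) sorted from mouse skin. The 10 genes were taken by their symbol in the array's platform annotation: H2-Ab1, H2-Aa, H2-Eb1, H2-DMa, H2-Oa, H2-Ob, Cd74, Ciita, Cd80 and Cd86. Of 19752 named genes on the array these are 10, read by 11 of its 24922 probe sets, 1 for each gene and 2 for Cd80, and all 11 passed the filter on dim signals. The samples came from female B6 mice in which EGFP occupies a single Ccr10 allele, so that all groups share this reporter and green fluorescence stands for CCR10 expression. The 4 groups were GFP+ and GFP- cells of mice with intact Rag1 (2 samples each), called Rag1-sufficient here, and GFP+ (2 samples) and GFP- (3 samples) cells of Rag1-/- mice. Rag1 encodes a recombinase needed to assemble T and B cell receptors, and Rag1-/- mice keep their ILCs but have no mature T or B cells. Sorted cells carried CD45.2 and lacked CD3. They also lacked Gr-1, 7-4, B220, CD11b, CD5 and an antigen of the Ter series, and the panel held neither CD11c nor a mast cell marker. No age was given. Whether samples of a group came from separate animals was not given either, so each p-value is set by sample-to-sample spread that could be purely technical.

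MHC class II molecules are surface dimers that display peptides from endosomes to CD4+ T cells. H2-Aa and H2-Ab1 encode the alpha and beta chains of the I-A dimer and H2-Eb1 the beta chain of I-E, of which B6 mice lack the alpha chain. The invariant chain, Cd74, blocks the groove until it is degraded, H2-DM then helps peptide to bind, and H2-O restrains H2-DM. Ciita is the coactivator that switches these genes on. Cd80 and Cd86 are ligands of Cd28 and Ctla4 on T cells. Some ILCs carry class II and can engage CD4+ T cells directly.

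Class II genes share an upstream module whose X and Y boxes recruit RFX, CREB and NF-Y proteins, and on these assembled complexes Ciita acts. The sequences just before the start are shown for the 4 members with a Y box match close to the start, genes whose levels took different courses in the arrays. They are the 140 bases that end right before the start, from RefSeq on GRCm38.p6, 5′ to 3′ on the gene's strand. Capitals mark matches on either strand to the Y box letters GATTGG, the X1 box end ACNGATG and the X2 box TGNGTCA. In H2-Oa the X1 and X2 matches overlap.

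H2-Aa, chr17:34287824-34287963, minus strand: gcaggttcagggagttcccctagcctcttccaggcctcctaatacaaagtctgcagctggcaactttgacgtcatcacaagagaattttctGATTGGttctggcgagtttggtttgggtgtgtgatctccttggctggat

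H2-Eb1, chr17:34305727-34305866, plus strand: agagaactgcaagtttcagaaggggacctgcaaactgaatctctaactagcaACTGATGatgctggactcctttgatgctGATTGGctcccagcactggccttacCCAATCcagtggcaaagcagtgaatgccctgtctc

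H2-Oa, chr17:34092239-34092378, plus strand: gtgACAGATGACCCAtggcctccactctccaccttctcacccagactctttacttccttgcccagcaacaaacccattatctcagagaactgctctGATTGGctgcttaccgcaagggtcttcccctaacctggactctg

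H2-Ob, chr17:34238765-34238904, plus strand: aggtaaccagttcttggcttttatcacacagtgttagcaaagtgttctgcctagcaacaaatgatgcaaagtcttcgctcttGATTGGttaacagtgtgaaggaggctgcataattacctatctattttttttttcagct

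On the gene's own strand, the Y box letters began 49 bases before the start in H2-Aa, 60 in H2-Eb1, 44 in H2-Oa and 58 in H2-Ob. Over the 250 bases before the start, 14.6% of all 32851 promoters in the same table held these letters, 8.31% the X1 end and 13% the X2 box. Promoters of 6 members were searched, in 7 entries, and 5 of these members held at least 1 of the 3 motifs. The share of all promoters with at least 1 of them was not counted. H2-Ab1, Cd74, Ciita and Cd86 were not searched. H2-DMa, the fifth, is not printed: in 1 of its entries the Y box letters lay 199 and the X2 letters 86 bases before the start. The sixth, Cd80, held none of these letters in this window.

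Genes typical of ILCs were bright on every array, though T cells express them too. Id2, a regulator of ILC development, lay between 6727 and 7905 intensity units and Il7r, the interleukin-7 receptor chain, between 2566 and 3806. Thy1, a surface protein of T cells and ILCs, lay between 3121 and 5227. Array medians ran from 74.1 to 77.6. Rag1 (28.4 to 31.4 on all 9 arrays) lay under the filter limit of 41.6 units and gave no check of the genotype. Ccr10 was higher without overlap in GFP+ than in GFP- cells of Rag1-sufficient mice, as were 29% of all probe sets tested. In Rag1-/- mice the fractions overlapped. Neither difference passed (limma adjusted p = 0.801 in Rag1-sufficient and 0.872 in Rag1-/- mice). The 2 Rag1-/- GFP+ arrays differed from each other in mast cell markers (summed intensity of 10 genes 4913 in replicate 1 and 1387 in replicate 2).

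The classical class II chains were read at lower levels in Rag1-/- than in Rag1-sufficient ILCs, in both fractions. H2-Ab1, H2-Aa and H2-Eb1 each had every Rag1-/- array below every Rag1-sufficient array. In GFP- cells they were lower by 2.80-fold for H2-Ab1, 2.81-fold for H2-Aa and 2.74-fold for H2-Eb1, and H2-Aa was 3.78-fold lower in GFP+ cells, but within a single fraction none passed the threshold of 0.05 after adjustment over all 17445 probe sets. In bulk samples, fewer cells that carry these transcripts and less transcript per cell cannot be told apart.

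**Figure D1:**
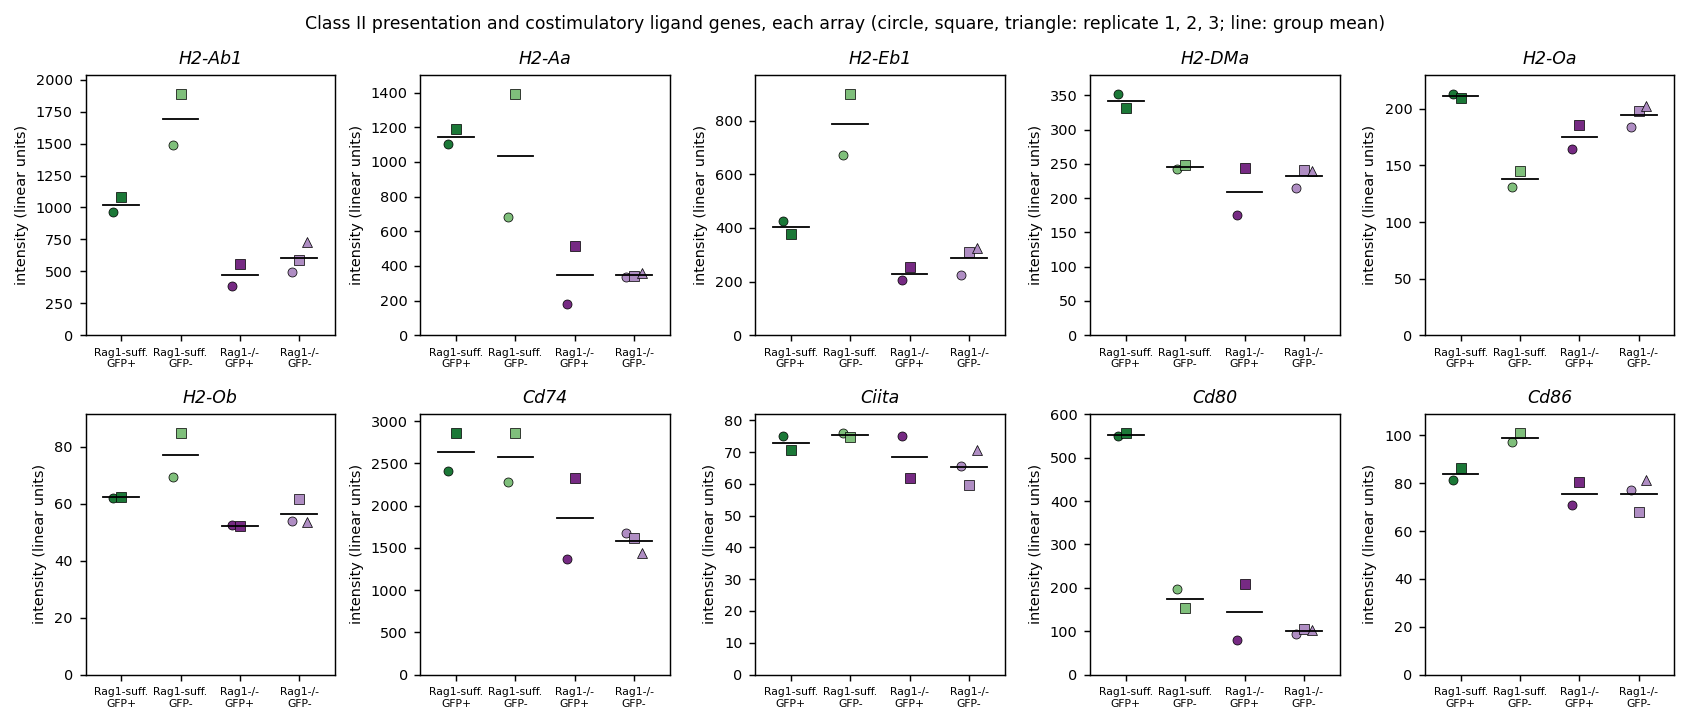
Intensity on a linear scale (y axis) of each of the 10 genes on each array, by group (x axis). Circles, squares and triangles are replicates 1, 2 and 3, and lines are group means. H2-Ab1, H2-Aa, H2-Eb1 and H2-Ob show all 5 Rag1-/- arrays below all 4 Rag1-sufficient arrays, and Cd80 stands out at 550 and 557 in Rag1-sufficient GFP+ cells.

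H2-Ab1, the I-A beta chain, read 967 and 1079 in Rag1-sufficient GFP+ cells and 1488 and 1889 in Rag1-sufficient GFP- cells. In Rag1-/- mice it read 382 and 556 in GFP+ cells and 498, 588 and 731 in GFP- cells. From highest to lowest the order was thus Rag1-sufficient GFP-, Rag1-sufficient GFP+, Rag1-/- GFP- and Rag1-/- GFP+, and only the last pair of neighbours overlapped. In GFP- cells the genotype difference was -1.48 ± 0.22 on the log2 scale (SE; adjusted p = 0.0525), and in GFP+ cells it was -1.15 ± 0.25 (adjusted p = 0.196). The GFP- difference was -1.35 and passed without Rag1-/- GFP- replicate 1 (adjusted p = 0.04998). It did not pass without either of the other Rag1-/- GFP- arrays. Averaged over both fractions, a comparison added after the data had been seen, H2-Ab1 fell by 1.32 ± 0.17 (adjusted p = 0.0466). It was the single member past the threshold in that comparison. In it 15 of 17445 probe sets (0.086%) passed, 0.0573% higher and 0.0287% lower, and 9.84% had an unadjusted p under 0.05, as did 8 of the 10 genes. This call was lost without any 1 of the 3 Rag1-/- GFP- arrays (adjusted p = 0.0530 to 0.143). The call was lost too without any 1 of the 4 Rag1-sufficient arrays, which leaves 1 array in a group.

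H2-Eb1, the I-E beta chain, followed H2-Ab1 closely. It read 425 and 378 in Rag1-sufficient GFP+, 673 and 899 in Rag1-sufficient GFP-, 205 and 254 in Rag1-/- GFP+, and 226, 310 and 325 in Rag1-/- GFP- cells. Again the Rag1-sufficient GFP- arrays were highest, and the Rag1-/- fractions overlapped. The genotype difference was -1.45 ± 0.21 in GFP- (adjusted p = 0.0520) and -0.81 ± 0.23 in GFP+ cells (adjusted p = 0.418). The GFP- difference was -1.29 and passed without Rag1-/- GFP- replicate 1 (adjusted p = 0.0394), but not without either of the other Rag1-/- GFP- arrays.

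H2-Aa, the I-A alpha chain, differed from its partner in the Rag1-sufficient fractions. It read 1103 and 1189 in Rag1-sufficient GFP+ cells, but 680 and 1392 in GFP- cells, so that these groups overlapped. In Rag1-/- mice it read 178 and 513 in GFP+ and 338, 340 and 360 in GFP- cells. The genotype difference was -1.92 ± 0.47 in GFP+ (adjusted p = 0.285) and -1.49 ± 0.42 in GFP- cells (adjusted p = 0.180). Replicates within 2 of the 4 groups were more than 2-fold apart, which widened both errors. Without Rag1-/- GFP+ replicate 2 the GFP+ difference was -2.68, and without replicate 1 it was -1.16, with 1 array left in that group. In GFP- cells it was -0.97 without Rag1-sufficient GFP- replicate 2.

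Cd74, the invariant chain, was bright everywhere and differed less between genotypes. It read 2410 and 2858 in Rag1-sufficient GFP+, 2284 and 2855 in Rag1-sufficient GFP-, 1371 and 2330 in Rag1-/- GFP+, and 1680, 1611 and 1436 in Rag1-/- GFP- cells. The highest Rag1-/- array lay inside the range of the Rag1-sufficient GFP- arrays. The genotype difference was -0.70 ± 0.22 in GFP- (adjusted p = 0.199) and -0.55 ± 0.24 in GFP+ cells (adjusted p = 0.721). Without Rag1-/- GFP+ replicate 1 the latter was -0.17, and without replicate 2 it was -0.94.

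Ciita, the class II coactivator, read between 59.7 and 76.0, below the array's own median on each of the 9 arrays. It read 75.0 and 70.7 in Rag1-sufficient GFP+, 76.0 and 74.9 in Rag1-sufficient GFP-, 75.1 and 62.0 in Rag1-/- GFP+, and 65.7, 59.7 and 70.7 in Rag1-/- GFP- cells. The genotype difference was -0.21 ± 0.11 in GFP- cells (95% interval -0.45 to 0.03, adjusted p = 0.346) and -0.09 ± 0.12 in GFP+ cells (95% interval -0.36 to 0.17, adjusted p = 0.935). These intervals hold for the measured signal of a dim probe set.

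The peptide editors of the endosome had unlike patterns. H2-DMa, a chain of the peptide exchange factor, read 352 and 331 in Rag1-sufficient GFP+ cells and 242 and 249 in GFP- cells. In Rag1-/- mice it read 175 and 244 in GFP+ and 215, 241 and 239 in GFP- cells. Rag1-sufficient GFP+ cells thus stood above the other 3 groups, whose arrays lay between 175 and 249. H2-DMa differed by 0.48 ± 0.17 between the Rag1-sufficient fractions (adjusted p = 0.290), by -0.72 ± 0.17 between genotypes in GFP+ cells (adjusted p = 0.282) and by -0.08 ± 0.16 in GFP- cells (adjusted p = 0.810). Without Rag1-/- GFP+ replicate 2 the GFP+ difference was -0.96, and without replicate 1 it was -0.48. A probe set annotated to both partner genes, H2-DMb1 and H2-DMb2, read 117 and 116 in Rag1-sufficient GFP+ and 129 and 128 in Rag1-sufficient GFP- cells. The Rag1-/- values were 74.8 and 77.7 in GFP+ and 72.7, 96.0 and 86.8 in GFP- cells. Its genotype difference was -0.60 ± 0.13 in GFP+ (adjusted p = 0.184) and -0.60 ± 0.12 in GFP- cells (adjusted p = 0.0943).

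H2-Oa and H2-Ob, the chains of the H2-DM inhibitor H2-O, had unlike orders of groups. H2-Oa read 213 and 209 in Rag1-sufficient GFP+ cells and 131 and 145 in GFP- cells, the lowest values of any group. Rag1-/- cells gave 164 and 186 in GFP+ and 184, 198 and 202 in GFP- cells. The Rag1-sufficient fractions differed by 0.61 ± 0.12 (adjusted p = 0.0790), and in GFP- cells the genotypes differed by 0.49 ± 0.11 (adjusted p = 0.137). H2-Oa was the only one of the 10 genes read higher in Rag1-/- GFP- cells.

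H2-Ob read 62.1 and 62.3 in Rag1-sufficient GFP+ and 69.3 and 84.8 in Rag1-sufficient GFP- cells. Rag1-/- cells gave 52.4 and 52.0 in GFP+ and 53.9, 61.8 and 53.6 in GFP- cells. All 5 Rag1-/- arrays were below all 4 Rag1-sufficient arrays, as for the classical chains. The genotype difference was -0.44 ± 0.10 in GFP- (adjusted p = 0.143) and -0.25 ± 0.11 in GFP+ cells (adjusted p = 0.730).

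Of all members Cd80, a ligand of Cd28 and Ctla4, had the widest difference between groups. It read 550 and 557 in Rag1-sufficient GFP+ cells against 196 and 152 in GFP- cells, a 3.19-fold difference of 1.67 ± 0.37 on the log2 scale (adjusted p = 0.0998). The Rag1-/- arrays held 78.9 and 209 in GFP+ and 93.5, 104 and 102 in GFP- cells. Rag1-/- GFP+ cells were 4.28-fold lower than their Rag1-sufficient counterparts, by -2.10 ± 0.37 (adjusted p = 0.0894), and Rag1-/- GFP- cells differed from theirs by -0.79 ± 0.33 (adjusted p = 0.277). Rag1-/- GFP+ replicate 2 lay above both Rag1-sufficient GFP- arrays, and replicate 1 below every other array. Without replicate 2 the genotype difference in GFP+ cells was -2.79, and without replicate 1 it was -1.40. Either fit leaves 1 array in that group, which adds nothing to the estimate of spread, so only the size is given. These arrays do not enter the difference between Rag1-sufficient fractions, so leaving them out could not change its size of 1.67. With a Rag1-sufficient array left out, which also leaves 1 in a group, that difference ran from 1.49 to 1.85.

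The other, dimmer Cd80 probe set took the same order of group means. It read 122 and 163 in Rag1-sufficient GFP+, 104 and 84.8 in Rag1-sufficient GFP-, 67.0 and 82.7 in Rag1-/- GFP+, and 64.3, 69.8 and 44.9 in Rag1-/- GFP- cells. Its differences were smaller, at 0.58 ± 0.23 between the Rag1-sufficient fractions (adjusted p = 0.328) and -0.91 ± 0.23 between genotypes in GFP+ cells (adjusted p = 0.318).

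Cd86, which binds the same receptors, had a different order. It read 81.4 and 86.6 in Rag1-sufficient GFP+, 97.2 and 101 in Rag1-sufficient GFP-, 70.9 and 80.5 in Rag1-/- GFP+, and 77.4, 68.1 and 81.4 in Rag1-/- GFP- cells. The highest values were thus in the fraction where Cd80 was lower among Rag1-sufficient cells. The genotype difference was -0.39 ± 0.10 in GFP- cells (adjusted p = 0.161), and the Rag1-sufficient fractions differed by -0.24 ± 0.11 (adjusted p = 0.430).

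**Figure D2:**
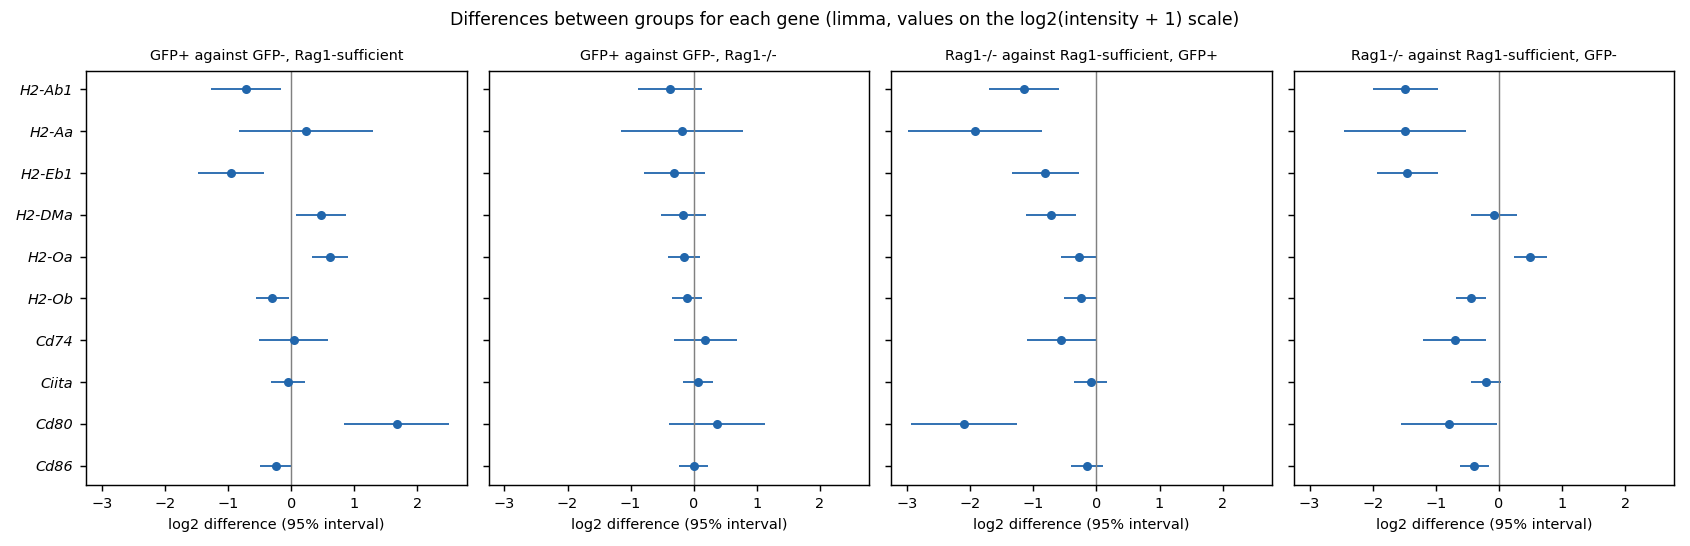
Difference of each gene on the log2(intensity + 1) scale (x axis) in each of the 4 comparisons, with its 95% interval from limma. In the comparisons of genotype 10 of 10 differences are negative in GFP+ cells and 9 of 10 in GFP- cells, where H2-Oa is positive; in Rag1-/- mice all 10 intervals for GFP+ against GFP- include 0.

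Counted over the 10 genes, the genotype comparisons leaned one way and the fraction comparisons did not. In GFP+ cells all 10 were lower in Rag1-/- mice, with a median difference of -0.64 against -0.02 over all probe sets tested. No overlap between groups, with Rag1-/- lower, was seen for 9 of them, all but Ciita, against 18.5% of all probe sets. The limma fit called 0 of the 10 (0.246% of all probe sets passed, 0.0516% higher and 0.195% lower), and 6 had an unadjusted p under 0.05 (6.82% of all). In GFP- cells 9 of 10 were lower, with a median of -0.57 against 0.00, and the same 9 did not overlap (17.6% of all probe sets). H2-Oa was higher without overlap, as were 23% of all. Here limma called 0 (0.143% of all, 0.0516% higher and 0.0917% lower), and 8 had an unadjusted p under 0.05 (17.3% of all). The genotype comparisons share no arrays with each other, but the fit gives them 1 estimate of spread. Averaged over fractions, 4 genes (H2-Ab1, H2-Aa, H2-Eb1 and H2-Ob) had no overlap between the 5 Rag1-/- and 4 Rag1-sufficient arrays, against 1.66% of all probe sets, and none was higher without overlap, against 1.32%.

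Between fractions of Rag1-sufficient mice, 5 of the 10 genes were higher and 5 lower in GFP+ cells. H2-DMa, H2-Oa and Cd80 were higher without overlap (29% of all probe sets), and H2-Ab1, H2-Eb1, H2-Ob and Cd86 lower without overlap (21.2%). For H2-Ab1 the difference was -0.71 ± 0.25 (adjusted p = 0.264) and for H2-Eb1 -0.96 ± 0.23 (adjusted p = 0.126). Limma called 0 of the 10 (0.803% of all probe sets passed, 0.332% higher and 0.47% lower), while 6 had an unadjusted p under 0.05 (13% of all). With arrays left out, the differences of H2-Oa and Cd80, 0.61 and 1.67, ran from 0.54 to 0.68 and from 1.49 to 1.85. Leaving out a Rag1-/- array could not change their sizes, since those arrays do not enter them. In Rag1-/- mice the fractions overlapped for all genes but H2-Ob, which was lower in GFP+ cells (10.1% of all probe sets were). None was higher without overlap, against 5.27% of all, and limma called 0 with none at an unadjusted p under 0.05 (0% and 6.29% of all). Every 95% interval there included 0, for instance -0.89 to 0.14 for H2-Ab1 and -0.40 to 1.12 for Cd80.

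Whether the fraction difference itself depended on genotype was tested by the interaction (Rag1-/- minus Rag1-sufficient). Limma called 0 of the 10 genes (0% of all probe sets), and 3 had an unadjusted p under 0.05 (13.6% of all). They were H2-Oa (-0.77 ± 0.17, adjusted p = 0.211), H2-DMa (-0.64 ± 0.24, adjusted p = 0.311) and Cd80 (-1.31 ± 0.50, adjusted p = 0.323). Without Rag1-/- GFP+ replicate 2, which leaves 1 array there, the interaction was -0.86 for H2-Oa and -2.01 for Cd80. Without replicate 1 it was -0.68 for H2-Oa and -0.61 for Cd80.

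Other genes of the pathway gave no call. Of 10 genes for loading and processing, 8 had a probe set of their own and 6 were tested. None passed in any of the 4 comparisons, and their median difference between genotypes was -0.28 in GFP+ and 0.20 in GFP- cells. Ctss, the protease that degrades the invariant chain, read 269 and 252 in Rag1-sufficient GFP- cells and 456, 541 and 818 in Rag1-/- GFP- cells, a difference of 1.17 ± 0.29 (adjusted p = 0.152). Ctsb, another endosomal protease, differed by 0.30 ± 0.19 there (adjusted p = 0.444). Among 13 genes of class II transcription 12 were tested and none passed, with genotype medians of -0.13 and 0.05. Rfx5, a subunit of the factor that binds the X box, ranged from 60.2 to 88.8 on all arrays. Spi1, a myeloid and B cell factor, read 122 and 130 in Rag1-sufficient GFP- cells against 68.5 and 61.2 in GFP+ cells (-0.95 ± 0.20, adjusted p = 0.0843). Nfyc, a subunit of the Y box factor, differed by 0.33 ± 0.18 between genotypes in GFP- cells (adjusted p = 0.366). Irf8, of the same list, read 216 and 220 in Rag1-/- GFP+ and 265, 273 and 271 in Rag1-/- GFP- cells.

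Of 11 other costimulatory ligands 9 were tested and none passed, with genotype medians of 0.02 in GFP+ and -0.07 in GFP- cells. Tnfsf4, the OX40 ligand, read 56.4 and 38.5 in Rag1-sufficient GFP- cells and 101, 70.5 and 101 in Rag1-/- GFP- cells, a difference of 0.93 ± 0.19 (adjusted p = 0.109). Pdcd1lg2, a ligand of the checkpoint receptor Pdcd1, differed by 0.50 ± 0.13 (adjusted p = 0.161) and Cd276, a B7 family member, by -0.35 ± 0.09 (adjusted p = 0.150). The counter-receptors on T cells, 6 genes, all tested, had none past the threshold. Cd28, the receptor of Cd80 and Cd86, read 234 and 312 in Rag1-sufficient GFP+ and 210 and 263 in Rag1-sufficient GFP- cells. The Rag1-/- arrays held 101 and 142 in GFP+ and 154, 68.3 and 126 in GFP- cells. Its genotype difference was -1.17 ± 0.35 in GFP+ (adjusted p = 0.469) and -1.09 ± 0.32 in GFP- cells (adjusted p = 0.190). Pdcd1 differed by -0.62 ± 0.17 between the Rag1-sufficient fractions (adjusted p = 0.160) and Cd4 by 0.42 ± 0.20 between genotypes in GFP- cells (adjusted p = 0.313).

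Among the members, H2-Ab1 varied most like H2-Eb1 over the 9 arrays (Pearson r = 0.974) and H2-Aa most like Cd74 (r = 0.940), while H2-Oa and H2-Ab1 had r = -0.413. Beyond the members, 13282 named genes were ranked by likeness to the mean log2 level of H2-Ab1, H2-Aa, H2-Eb1 and Cd74. The nearest were Perp (r = 0.968), a desmosome gene of epidermis, Apoc1 (0.967), Serpinb5 (0.961), an epithelial serpin, S100a16 (0.954) and Cd59a (0.945). Nearest to Cd86 were Sgms2 (0.976), Mt1 (0.957), Olfr642 (0.955), Srrt (0.951) and Coprs (0.944). These correlations describe arrays that share groups, and carry no test.

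**Figure D3:**
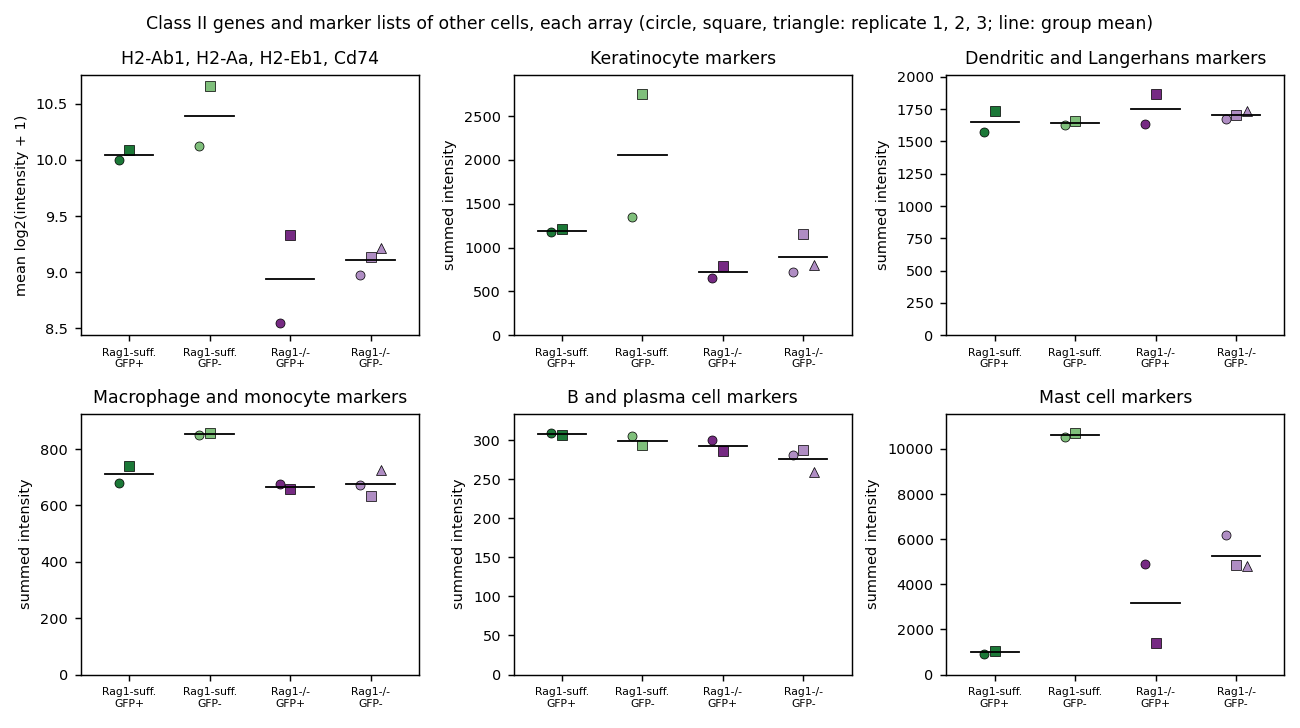
Mean log2(intensity + 1) of H2-Ab1, H2-Aa, H2-Eb1 and Cd74 (first panel) and summed intensity of 5 marker lists (other panels, y axes from 0) on each array, by group. Circles, squares and triangles are replicates 1, 2 and 3, and lines are group means. Rag1-sufficient GFP- replicate 2 is highest for the class II mean (10.7) and for keratinocyte markers (2754).

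Summed keratinocyte markers had an order of groups like that of H2-Ab1 and H2-Eb1, and unlike that of H2-Aa and Cd74. Of 7 markers, all tested, none passed, and 6 of 7 were lower in Rag1-/- GFP+ and 7 of 7 in Rag1-/- GFP- cells, with medians of -0.78 and -1.11. Their summed intensity was 1174 to 1215 in Rag1-sufficient GFP+, 1354 to 2754 in Rag1-sufficient GFP-, 656 to 795 in Rag1-/- GFP+ and 723 to 1154 in Rag1-/- GFP- cells. Krt14, a keratin of basal epidermis, read 300 and 277 in Rag1-sufficient GFP+ cells, where H2-Aa read 1103 and 1189. In Rag1-/- GFP+ cells Krt14 read 96.8 and 144 and H2-Aa 178 and 513. In Rag1-/- GFP- cells Krt14 read 101, 286 and 152 and H2-Aa 338, 340 and 360. In Rag1-sufficient GFP- cells Krt14 read 375 and 782 and H2-Aa 680 and 1392. Without replicate 2 of that group the genotype difference in GFP- cells was -1.31 for H2-Ab1 and -1.24 for H2-Eb1. Replicate 1, then alone in its group, had a keratinocyte sum of 1354, still above every Rag1-/- array. The part of keratinocytes in the class II result was not tested.

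Summed T cell markers were higher in Rag1-/- than in Rag1-sufficient arrays. Of 6 markers 5 had a probe set and were tested, with summed intensities of 1749 to 2190 in Rag1-sufficient GFP+, 1335 to 1337 in Rag1-sufficient GFP-, 2792 to 5726 in Rag1-/- GFP+ and 3733 to 6039 in Rag1-/- GFP- cells. Cd3e, a chain of the T cell receptor complex that the sort was gated against, read 233, 157, 270 and 238 in the Rag1-sufficient arrays. It read 763 and 1981 in Rag1-/- GFP+ and 925, 765 and 942 in Rag1-/- GFP- cells. Cd3e was higher in Rag1-/- GFP+ cells by 2.68 ± 0.39 (adjusted p = 0.0419) and averaged over fractions by 2.23 ± 0.27 (adjusted p = 0.0410), and in GFP- cells the difference was 1.78 ± 0.36 (adjusted p = 0.101). Cd3d and Cd3g were higher without overlap in both fractions and did not pass, while Cd5 and Cd8a were lower in GFP- cells (-0.27 and -0.24, neither passed). Rag1-/- mice have no mature T cells, and the source of these transcripts there was not tested. Their part in the class II result was not tested either.

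Markers of cells that carry abundant class II were mostly dim. B cell genes Ms4a1 (15.3 to 17.7) and Cd79a (20.4 to 26.7) lay under the filter limit on every array, and the 6 B and plasma cell genes with a probe set summed to between 259 and 309. Of 12 macrophage and monocyte markers 9 were tested and none passed, and their sum was 849 to 856 in Rag1-sufficient GFP- cells and 632 to 741 elsewhere. The 10 dendritic and Langerhans cell markers summed to between 1575 and 1868, of which Ccr7, also a lymphocyte receptor, took 842 to 1199. Cd207, which defines Langerhans cells, read 44.0 and 44.4 in Rag1-sufficient GFP- cells and 34.0 to 39.9 elsewhere, too dim to be tested. Between the Rag1-sufficient fractions, 7 of the 8 tested were lower in GFP+ cells and 1 higher (median -0.38). Between the Rag1-/- fractions 4 were lower and 4 higher (median -0.03). Flt3, of the same list, read 64.9 and 66.5 in Rag1-sufficient GFP- cells and 35.5 to 50.5 elsewhere. Between genotypes, 4 of the 8 tested were lower and 4 higher in Rag1-/- than in Rag1-sufficient GFP- cells (median -0.03), and 3 were lower and 5 higher in GFP+ cells (median 0.06). Itgax, which encodes CD11c, read 83.8 and 96.2 in Rag1-sufficient GFP- and 104, 105 and 119 in Rag1-/- GFP- cells. It read 62.4 and 56.0 in Rag1-sufficient GFP+ and 96.2 and 153 in Rag1-/- GFP+ cells. Xcr1, of cross-presenting dendritic cells, read 68.2 and 65.0 in Rag1-sufficient GFP- cells and 38.2 to 42.9 elsewhere. It passed the filter only through those 2 arrays, so it is given as a description. Cd209a, a lectin of dermal dendritic cells, read 101 and 144 in Rag1-sufficient GFP- cells and 46.4 to 92.8 elsewhere. The mast cell markers summed to 10519 and 10702 in Rag1-sufficient GFP- cells and to 4806 to 6169 in Rag1-/- GFP- cells. In Rag1-sufficient GFP+ cells they summed to 927 and 1038. Of 10 mast cell markers 9 were tested. Between the Rag1-sufficient fractions 7 passed, all lower in GFP+ cells (0.47% of all probe sets passed lower). None passed between genotypes in either fraction. There 9 of 9 were lower in Rag1-/- GFP- cells (median -1.13) and 9 of 9 higher in Rag1-/- GFP+ cells (median 0.49). What these cells contribute to the class II values was not tested.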

How the data were processed

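Skin ILC samples, 9 in all, were hybridised to Affymetrix arrays as biotinylated single-stranded DNA, per the labels' protocols. The values as deposited are intensities on a linear scale, 1 for each array at each probe set, and hold no detection calls. The submitters' processing notes name MAS5, with no version or role. How arrays were normalized to each other, and which genome build was used, is not given in the sources used here. Gene names came from the platform annotation (21425 probe sets with 1 symbol, 1399 with several, 2098 with none), and all 10 members matched GRCm38.p6 by gene identifier. The brightest probe set stood for a gene.

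Intensities were transformed as log2(value + 1), which understates changes of dim genes. Ranked by mean, the lowest 30% of probe sets were dropped, leaving 17445. A mean per group was fitted with limma 3.58.1 in R 4.3.3 (lmFit, eBayes with trend), with two-sided tests. Adjustment (Benjamini-Hochberg) ran across those 17445, and the threshold was 0.05. The fit was tested on simulated data. Values are mean differences ± SE. The number of arrays limits the precision.

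The members and lists were chosen with earlier results of these data known. All members are named, and from each pathway list a few genes, since none passed. These come from unlike comparisons and are not a strict ranking by p. Rfx5 and the marker genes were added. Alternatives were another pseudocount, no filter, quantile normalization, median centring, no trend, array weights, the mean of a gene's probe sets, the compared groups alone, a replicate block and leaving out each array. Xcr1, Cd209a, Itgax and other marker genes were picked for mention after their values were seen.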

Additional observations from a re-analysis of the deposited data

Results flagged for a closer look

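The genotype difference of H2-Oa had opposite signs in the GFP+ and GFP- fractions. In GFP+ cells both Rag1-/- arrays lay below both Rag1-sufficient arrays, as for 18.5% of all probe sets. In GFP- cells all 3 Rag1-/- arrays lay above, as for 23% of all probe sets. The share with both was not counted. An unadjusted interaction p under 0.05 was found for 13.6% of all probe sets. The interaction was -0.77 ± 0.17 on the log2 scale, with a limma adjusted p of 0.211, so it did not pass over all probe sets.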

How the results depend on the processing

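Each group holds 2 or 3 arrays. With simulated 2-fold changes at this size, limma recovered 64.5% to 77% of the changed probe sets in the 4 comparisons and 42% for the interaction. The false share of its calls was 2.94% to 8.11% in the 4 comparisons and 2.33% for the interaction. These are no rates for the members: Cd80 was 4.28-fold lower in Rag1-/- than in Rag1-sufficient GFP+ cells and did not pass. Alternatives gave 890 member values in the 4 comparisons and the interaction: 28 passed, 19 turned direction and 843 did neither. None passed in the main fit, so none could stop. Many could not turn: leaving out the trend, filter or an array not compared keeps the difference. With array weights 5 members passed between Rag1-sufficient fractions and 6 between genotypes in GFP- cells. There, 2 passed with quantile normalization (H2-Ab1 and H2-Eb1) and 1 with a pseudocount of 16 (H2-Eb1). For genotype averaged over fractions, where 1 passed, the count was 0 without a filter, with median centring and without a trend, 2 with quantile normalization and 3 with array weights. Of 170 such values there, 154 kept their side, 6 newly passed and 10 no longer passed. All 10 were H2-Ab1, whose adjusted p was 0.0662 without a filter, 0.0656 with median centring, 0.0513 without a trend and 0.0530 to 0.280 without any 1 of 7 arrays. Leaving out each array gave 0 to 2 members between Rag1-sufficient fractions, 0 to 0 between Rag1-/- fractions, 0 to 3 between genotypes in GFP+ cells, 0 to 2 in GFP- cells, 0 to 2 for the interaction and 0 to 3 averaged over fractions. The cause was not tested.

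Direction turned for small differences. Cd74 between Rag1-sufficient fractions was -0.087 with quantile normalization, and ran from -0.12 to 0.20 with arrays left out. Cd86 between Rag1-/- fractions was -0.020 with quantile normalization and -0.018 with median centring, and ran from -0.087 to 0.092. With arrays left out, H2-Aa ran from -0.28 to 0.75 between Rag1-sufficient fractions, from -0.95 to 0.57 between Rag1-/- fractions and from -1.19 to 0.33 for the interaction. Between Rag1-/- fractions, H2-DMa ran from -0.40 to 0.077, Cd74 from -0.20 to 0.57, Ciita from -0.072 to 0.20 and Cd80 from -0.33 to 1.06. For the interaction, Cd74 ran from -0.24 to 0.53 and Ciita from -0.022 to 0.25. Ciita between genotypes in GFP+ cells ran from -0.23 to 0.043.

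The labels number replicates alike in each group without saying that a number marks a shared animal or day, and deviations of same-numbered arrays correlated between -0.51 and 0.24. With the replicate block, in which Rag1-/- GFP- replicate 3 has a term of its own and so adds nothing, 0 members passed within each fraction or genotype and for the interaction, and 1 for genotype averaged over fractions. The block left 73, 2 and 6 probe sets past the threshold, against 140, 43 and 25, between Rag1-sufficient fractions and between genotypes in GFP+ and GFP- cells. Between the GFP+ groups, where same-numbered arrays correlated at -0.11, a block with crossed numbers, chosen after seeing the data, left 0 members and 2 probe sets. With arrays left out the counts ran from 3 to 335, from 1 to 135 and from 1 to 139. Array weights gave 1290 probe sets between Rag1-sufficient fractions, 1168 between genotypes in GFP- cells and 31 for the interaction, where equal weights gave 0. Between genotypes in GFP+ cells 19 passed with quantile normalization, 3 without a trend and 0 with the compared groups alone, and in GFP- cells 39 with a pseudocount of 16 and 8 with the compared groups alone. Averaged over fractions, 15 became 5 without a filter, 33 with quantile normalization, 64 with array weights and 9 with the block.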
